A study of Mus musculus with 9 samples.

Results

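The genes that start meiotic recombination were examined in mouse testis. They are 8 genes grouped here under the formation of DNA double-strand breaks, namely Prdm9, Zcwpw1, Spo11, Mei1, Mei4, Rec114, Ccdc36 (also called Iho1) and Ankrd31. They were chosen by name, with earlier results of these data known. Of the 8, 6 had a named row in the deposited table, which holds 23148 gene symbols in 29661 rows. These 6 genes had 8 rows. A row with the RefSeq accession of Rec114 carried no gene name in the table, so its values are given separately and do not enter the counts over the 6 genes. No expression value of Ankrd31 was analysed here.

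The RNA-seq arm compared testes of C57BL/6 mice at postnatal day 10, with 3 libraries under the label Lin28a knockout and 3 under the label wild type. The titles of the knockout libraries carry the mark cKO, and neither the Cre driver nor the cells in which the gene was removed is stated in the sources used here. The other 3 samples, a LIN28A CLIP set, were not analysed here. The table gives 1 FPKM value (fragments scaled to transcript length and sequencing depth) per group, in a column named case and a column named control, so there is no spread between libraries to set beside a level, and the depth is unknown. Case was read as knockout and control as wild type from the column names. Lin28a itself stood at 23.4 FPKM in the case-labelled column and 8.82 FPKM in the control-labelled column (q = 0.00191 in the authors' deposited table), which goes against that reading. Which exons were removed is not stated in the sources used here. Every direction below therefore rests on the column names.

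In meiotic prophase, cells cut their own DNA at chosen sites and repair the cuts on the homologous chromosome, which pairs the homologs and yields crossovers. In mice PRDM9 marks the sites by methylating histones, and SPO11 makes the cut together with TOPOVIBL. MEI1, MEI4, REC114 and IHO1 are needed for cutting, most of them as foci on the chromosome axis. ANKRD31 is grouped with them here, and not as a protein without which no cuts are made. Juvenile testes at this age hold the first wave of germ cells that enters meiosis, together with spermatogonia and somatic cells. The comparison asks whether the levels of these transcripts differ when Lin28a is lost.

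All 6 genes found by name had lower FPKM in the case-labelled column, by 1.15-fold (Mei4) to 2.76-fold (Spo11, rows summed), with a median of 1.41-fold. Of the 12583 genes whose mean FPKM reached 1, 39.2% were lower in that column, or 49.4% after median-of-ratios rescaling of the columns. A difference of at least 1.3-fold, a size set with the values known, was reached by 5 of the 6 genes and by 3.21% of all genes. Low genes scatter more: the share was 7.72% at a mean of 1 to 5 FPKM (where Spo11 and Mei4 lie), 2.09% at 5 to 20 FPKM (Prdm9, Mei1 and Ccdc36) and 1.15% above that (Zcwpw1). On the log2(FPKM + 1) scale, with rows of a gene summed, the median difference was -0.44 over the 6 genes and 0.03 over all 12583 genes. Of the 6 rows that the authors tested, 0 had a q-value under 0.05 and 1, that of Prdm9, had an unadjusted p-value under 0.05. Over all 13629 tested rows those shares were 0.0514% and 1.28%.

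**Figure D1:**
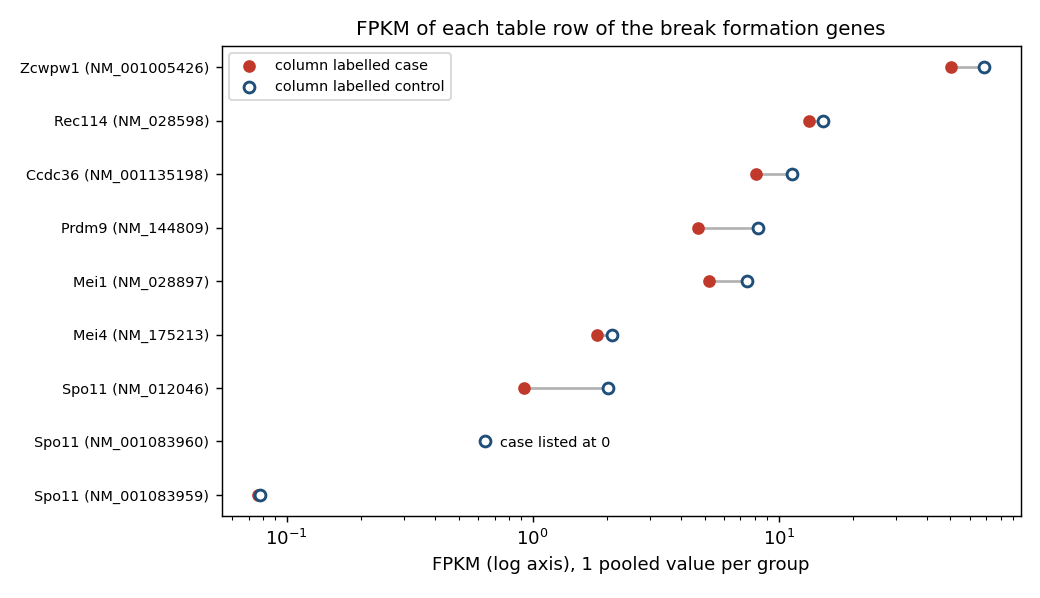
FPKM of each table row of the genes on a log axis, with filled points for the case-labelled column and open points for the control-labelled column, each a single pooled value. Every filled point drawn lies to the left of its open point (the row listed at 0 has none), from Zcwpw1 at 50.5 and 68.6 FPKM down to the rows of Spo11. The row of Rec114 was found by accession.

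The authors' p-values equal those of a two-sided normal test of their statistic to within 2.77e-06 in all 13586 tested rows with both values above 0. The log2 ratio divided by that statistic therefore gives the standard error (SE) that the authors' test used, and 95% intervals below are the ratio ± 1.96 SE. How the 3 libraries of a group entered that error is not stated in the sources used here, and the labels do not say whether they came from separate animals. Over all 13629 tested rows, 1.28% had p under 0.05 in the authors' test and the median p-value was 0.731. The intervals may thus be wider than a nominal 95%, and their coverage was not tested.

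The genes that choose and read break sites are Prdm9 and Zcwpw1. Prdm9 (NM_144809; mm10 chromosome 17, 15543079 to 15563323) encodes the zinc finger methyltransferase that sets hotspot positions. It stood at 4.69 FPKM in the case-labelled column and 8.27 FPKM in the control-labelled column, 1.76-fold lower in the former. The log2 ratio was -0.82 with an SE of 0.35 from the authors' statistic, and the 95% interval ran from -1.50 to -0.14 (p = 0.0181, q = 0.999966 in the authors' deposited table). It was the only row of these genes whose interval lay wholly below 0. On the log2(FPKM + 1) scale its difference of -0.71 was matched or passed, in the same direction, by 0.461% of the 5203 genes with a mean of 5 to 20 FPKM.

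Zcwpw1 (NM_001005426; mm10 chromosome 5, 137787802 to 137836278) encodes a reader of the histone marks that PRDM9 writes. It is grouped with the others for that role, and not as a gene needed for cutting. Zcwpw1 had the highest level of the genes examined, 50.5 FPKM in the case-labelled column and 68.6 FPKM in the control-labelled column. Its mean lay above that of 91.6% of all genes analysed. Its log2 ratio was -0.44 (SE 0.24 from the authors' statistic, 95% interval -0.92 to 0.03, p = 0.0683 in the authors' deposited table). It had the smallest SE of the 6 tested rows, and its interval just held 0. Among the 4179 genes with a mean of at least 20 FPKM, 0.814% were as low or lower by difference. The row shares its position in the table with Pilra, a gene of immune cells that stood at 0.0849 and 0.0816 FPKM.

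Spo11, the topoisomerase-like enzyme that cuts the DNA, had 3 rows at one position (mm10 chromosome 2, 172979842 to 172993576). The row with the highest level, NM_012046, stood at 0.922 FPKM in the case-labelled column and 2.03 FPKM in the control-labelled column, with a log2 ratio of -1.14 (SE 0.69 from the authors' statistic, 95% interval -2.48 to 0.20, p = 0.0965 in the authors' deposited table). The difference in FPKM was large as a ratio and uncertain, since the interval for control over case ran from 0.868-fold to 5.58-fold. The row NM_001083960 was at 0.643 FPKM in the control-labelled column and listed at 0 in the other, and the row NM_001083959 stood at 0.0766 and 0.0781 FPKM. The authors did not test these 2 rows. Reads of one gene are divided among its rows by a model, so the split among the 3 is uncertain. Summed, Spo11 stood at 0.999 and 2.75 FPKM, the lowest summed level in the case-labelled column. Gm960, the symbol used in the table for the gene of TOPOVIBL, stood at 1.22 FPKM in the case-labelled column and 1.99 FPKM in the control-labelled column. It is named here for its role beside SPO11, with its values already seen.

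Of the accessory genes for cutting, Mei1 (NM_028897; mm10 chromosome 15, 82070117 to 82126814), whose product is needed for break formation, stood at 5.23 FPKM in the case-labelled column and 7.43 FPKM in the control-labelled column. Its log2 ratio was -0.51 (SE 0.33 from the authors' statistic, 95% interval -1.15 to 0.14, p = 0.124 in the authors' deposited table). Ccdc36 (NM_001135198; mm10 chromosome 9, 108403633 to 108428482) encodes IHO1, which ties the cutting machinery to the axis protein HORMAD1, and stood at 8.11 and 11.4 FPKM. Its log2 ratio was -0.49 (SE 0.32 from the authors' statistic, 95% interval -1.12 to 0.14, p = 0.130 in the authors' deposited table). The ratios of Mei1, Ccdc36 and Zcwpw1 were 1.42-fold, 1.40-fold and 1.36-fold, with Zcwpw1 at a much higher level than the others. Their intervals are wide and all hold 0, so a common size is not shown.

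Mei4 and Rec114, whose proteins form a complex on the axis, had the smallest differences. Mei4 (NM_175213; mm10 chromosome 9, 81863744 to 82027491) stood at 1.83 FPKM in the case-labelled column and 2.10 FPKM in the control-labelled column. Its log2 ratio was -0.20 (SE 0.49 from the authors' statistic, 95% interval -1.16 to 0.77, p = 0.689 in the authors' deposited table), and 17.5% of the 3201 genes with a mean of 1 to 5 FPKM were as low or lower by difference. The row with the accession of Rec114 (NM_028598; mm10 chromosome 9, 58582240 to 58741559) stood at 13.2 and 15.1 FPKM. Its log2 ratio was -0.19 (SE 0.43 from the authors' statistic, 95% interval -1.03 to 0.64, p = 0.652 in the authors' deposited table). That row shares its position with Nptn, which codes for a cell adhesion protein and stood at 59.6 and 58.1 FPKM, so reads where the genes overlap may be divided between them. The intervals of Mei4 and Rec114 hold both no difference and the ratio of Prdm9, so a weaker difference in these genes is not shown.

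**Figure D2:**
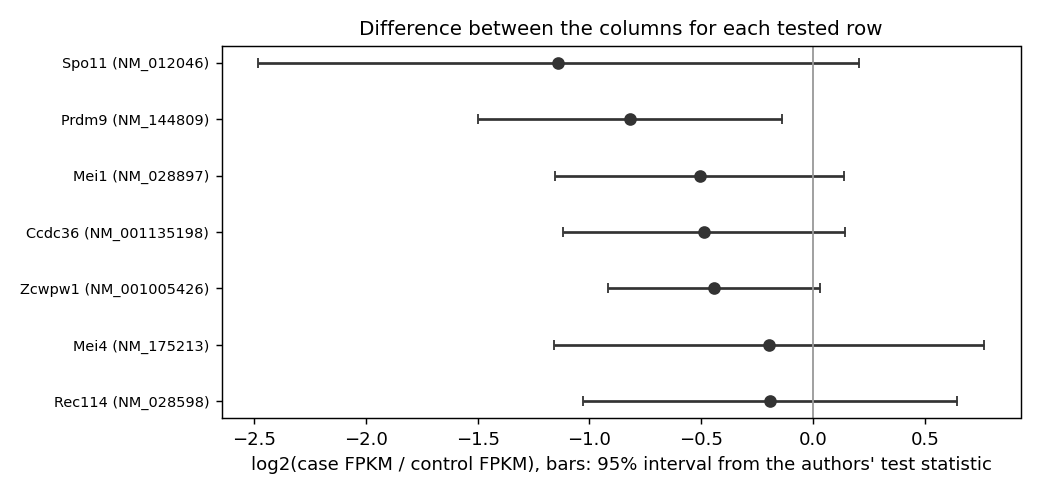
Log2 ratio of case over control FPKM for the 7 tested rows, with 95% intervals from the authors' test statistic. The interval of Prdm9 ends at -0.14 and the other 6 cross 0, with that of Spo11 the widest.

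In order of FPKM in the control-labelled column, the genes ran Zcwpw1, Rec114, Ccdc36, Prdm9, Mei1, Spo11 (summed) and Mei4. In the case-labelled column Mei1 stood above Prdm9, and Mei4 above Spo11. No error of a single level can be had, so whether neighbours in this order differ beyond their spread was not tested. With 1 value per group, no gene can be named for a like pattern across samples.

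**Figure D3:**
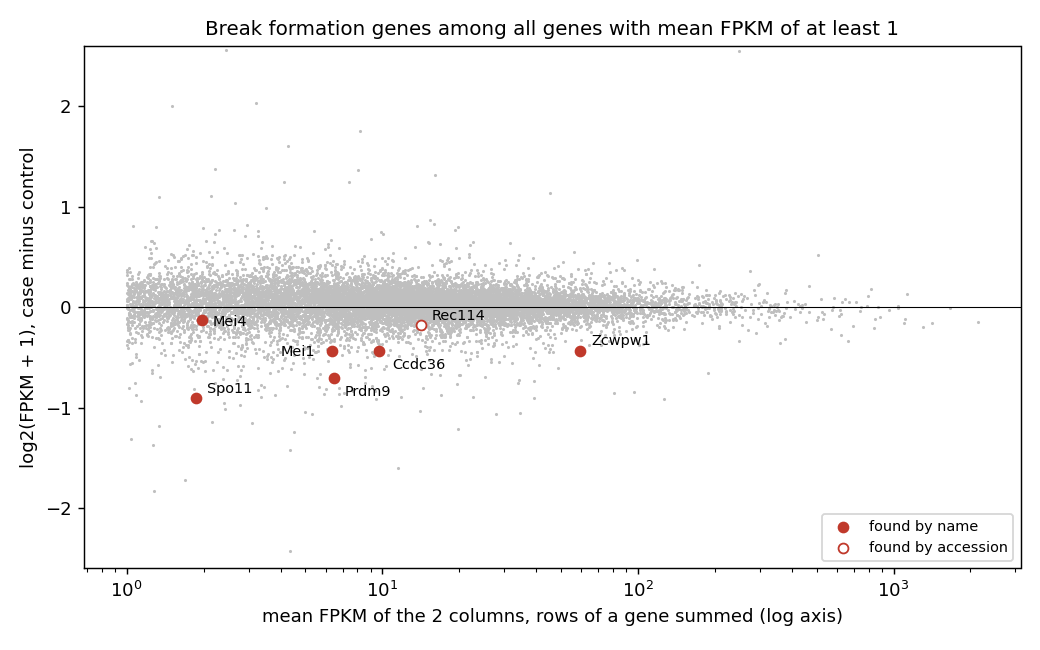
Difference of log2(FPKM + 1), case minus control, against the mean FPKM of both columns on a log axis for 12583 genes in grey, with 5 genes beyond the range of the vertical axis. The 6 genes found by name (filled) and Rec114 (open) all lie below 0, from -0.13 for Mei4 to -0.91 for Spo11.

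Promoter sequence is shown for windows of Prdm9, Mei4 and Rec114 that held matches to the short motifs searched. The match in the Mei4 window was the CCAAT box alone. The window of Ccdc36 held that box too and is not printed. The RefSeq promoter table (build GRCm38.p6, the assembly that mm10 names) had 9 windows for 7 of the 8 genes, and none for Spo11. The 250 bases before each start site were searched on both strands for 6 motifs. These were CNCCTCAG (bound by STRA8 with MEIOSIN at meiotic entry), CACGTG (the E-box), GGCGGGAA (bound by E2F factors), TGACGTCA (the cAMP response element), CCAAT (the CCAAT box) and TATAAA (the TATA box). Capitals below mark matches on either strand, and each sequence runs 5′ to 3′ on the strand of the gene.
Prdm9, chr17:15564355-15564604, minus strand: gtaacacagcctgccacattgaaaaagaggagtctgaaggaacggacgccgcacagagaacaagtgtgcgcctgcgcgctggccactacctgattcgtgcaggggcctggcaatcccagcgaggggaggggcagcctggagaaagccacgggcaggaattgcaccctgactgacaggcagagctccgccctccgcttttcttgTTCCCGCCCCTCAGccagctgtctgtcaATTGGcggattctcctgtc
Mei4, chr9:81863420-81863669, plus strand: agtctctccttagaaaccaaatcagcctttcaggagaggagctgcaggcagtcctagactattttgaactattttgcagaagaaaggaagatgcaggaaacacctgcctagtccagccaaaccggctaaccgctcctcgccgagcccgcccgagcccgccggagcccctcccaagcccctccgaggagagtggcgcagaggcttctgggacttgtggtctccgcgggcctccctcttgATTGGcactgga
Rec114, chr9:58741560-58741809, minus strand: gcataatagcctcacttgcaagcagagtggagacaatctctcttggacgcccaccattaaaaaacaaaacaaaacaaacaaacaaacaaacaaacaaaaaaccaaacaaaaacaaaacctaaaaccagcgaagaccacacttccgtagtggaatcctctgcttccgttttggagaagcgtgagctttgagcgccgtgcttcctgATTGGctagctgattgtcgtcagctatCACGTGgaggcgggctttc

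The outer Prdm9 window held the STRA8 and MEIOSIN motif, the E2F motif (on the opposite strand) and, after them, the CCAAT box (on the opposite strand), and the first 2 of these overlap. The start site of this window lies 1031 bases from the start of the Prdm9 row, whereas the other Prdm9 window begins 8 bases from it and held 0 matches. Rec114, whose window begins exactly at the row, held the E-box and the CCAAT box, and Mei4, whose window begins 74 bases from the row, held the CCAAT box. The window of Ccdc36 held the CCAAT box too, but it begins 3344 bases from the start of the row. Both windows of Zcwpw1, which begin 0 and 471 bases from its row, held 0 matches, as did that of Ankrd31. The window of Mei1 held 0 matches too, but it lies inside the span of the Mei1 row. Its start site is 12359 bases after the start of that row, so it is not the sequence before the row's own start. It still counts among the 9 windows below and has the lowest CpG number, 8. Of all 32851 windows of the same length, 6.42% held the STRA8 and MEIOSIN motif, 6.02% the E-box, 1.86% the E2F motif, 33.8% the CCAAT box, 1.55% the cAMP response element and 12.4% the TATA box. The CCAAT box was thus in 4 of 9 windows of these genes, the first 3 motifs in 1 of 9 each, and the last 2 in 0. CpG dinucleotides numbered 8 to 16 in the 9 windows, and the quartiles over all windows were 2 and 16 around a median of 6.

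Other genes of the pathway were taken from 5 lists. In the list drawn up as partners of the hotspot proteins, 2 of 6 measured genes were lower in the case-labelled column. Of 5 tested genes, 0 had p under 0.05 in the authors' deposited table. The median difference was 0.00 on the log2(FPKM + 1) scale. Hells, a chromatin remodeller that works with PRDM9, was at 88.0 FPKM in the case-labelled column and 97.4 FPKM in the control-labelled column, Ctcfl, a CTCF paralog of germ cells, at 2.70 and 2.83, and Ewsr1, an RNA-binding protein that also binds PRDM9, at 114 and 112. The measured genes of this list had differences from -0.14 to 0.03. Not every gene in it is a direct partner of PRDM9 or ZCWPW1, and no such role of Ctcfl is established here.

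In the list drawn up as partners of the break machinery, 8 of 11 genes were lower, with a median of -0.33. Not all of its genes are direct partners: Fbxo47 and Meioc, named below, have wider roles in meiotic prophase. Of 12 tested genes, 4 had p under 0.05 in the authors' deposited table, all 4 lower, and 0 had q under 0.05. Hormad1, the axis protein to which IHO1 binds, stood at 15.6 FPKM in the case-labelled column and 29.8 FPKM in the control-labelled column, and Fbxo47, an F-box protein needed in meiotic prophase, at 2.90 and 7.05 FPKM. Their p-values were 0.00339 and 0.00752 in the authors' deposited table. Meioc, needed for the extended prophase of meiosis, stood at 17.9 and 26.1 FPKM, and its p-value in the authors' deposited table was 0.0301. It is in this list under an older name and also among the genes of meiotic entry.

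Of 16 genes that process and signal breaks, 13 were lower, with a median of -0.05, and 1 of 16 tested had p under 0.05 in the authors' deposited table. That gene, the checkpoint kinase Atr, stood at 23.2 FPKM in the case-labelled column and 34.2 FPKM in the control-labelled column (p = 0.0191 in the authors' deposited table). Atm, the kinase that limits further cutting, was at 13.7 and 16.8 FPKM, and Mdc1, an adaptor that binds phosphorylated histone H2AX, at 15.2 and 18.6 FPKM.

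Strand exchange genes, which act on the resected breaks, were lower in 14 of 18, with a median of -0.16 and 5 of 13 tested genes with p under 0.05, all 5 lower. Rad51ap2 stood at 1.53 FPKM in the case-labelled column and 4.65 FPKM in the control-labelled column, and Meiob, a single-strand DNA binder, at 1.92 and 6.82 FPKM (q = 0.492 for both in the authors' deposited table). Dmc1, which pairs broken strands with the homolog, stood at 14.2 and 24.9 FPKM, and its p-value in the authors' deposited table was 0.00641. The differences within this list ran from -1.42 to 0.28.

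In the list of meiotic entry and chromosome axis genes, which also holds Tex101, 11 of 12 genes were lower, with a median of -0.48. Of 11 tested genes, 4 had p under 0.05 in the authors' deposited table, all 4 lower. Tex101, a germ cell surface protein, stood at 87.0 FPKM in the case-labelled column and 165 FPKM in the control-labelled column, Sycp2, of the axis, at 15.3 and 24.9 FPKM, and Sycp1, of the synaptonemal complex, at 38.5 and 59.1 FPKM. Their p-values were 1.95e-04, 0.00407 and 0.0102 in the authors' deposited table, and the smallest q of the 3 was 0.292. Counting each gene of the 5 lists once, 13 of 56 tested genes were lower and 0 higher with p under 0.05 in that table, and 0 had q under 0.05. Over all tested rows, 0.631% were lower and 0.646% higher with p under 0.05.

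Marker levels of the cell types in the tissue are set beside these values. Leydig cell markers were higher in the case-labelled column in 7 of 7 genes, with summed levels of 332 and 255 FPKM. Peritubular and stromal markers were higher in 8 of 8 (777 and 658 FPKM) and endothelial markers in 5 of 5 (37.2 and 31.0 FPKM). Most genes were not lower in that column: over all 12583 genes the share lower was 39.2%. Germ cell markers were lower in 7 of 10, with a median difference of -0.08 and summed levels of 490 and 543 FPKM. The markers of undifferentiated spermatogonia had a median of 0.04 (3 of 8 lower, 74.6 and 73.4 FPKM), and Sertoli cell markers a median of 0.08 (4 of 10 lower, 3381 and 3401 FPKM). Both counts are near the share over all genes. The Sertoli cell markers ran from -1.03 (Rhox5) to 0.52 (Cst9). Macrophage markers were lower in 4 of 4 measured genes (43.8 and 58.7 FPKM). Markers of pachytene cells and spermatids summed to 6.92 and 7.62 FPKM over 10 genes, 1 of which was listed at 0 in both columns and 4 of which reached a mean of 1 FPKM. In the authors' deposited table, p was under 0.05 for 1 of 7 tested Leydig cell markers (higher) and 1 of 10 tested Sertoli cell markers (lower). Of the tested markers of the other cell types, 0 had p under 0.05, and 0 markers of any type had q under 0.05. The part of these marker levels in the values of the break formation genes was not tested. In bulk tissue, fewer cells of a type and less RNA per cell cannot be told apart. With the germ cell median subtracted, the median difference of the 6 genes was -0.36. The germ cell markers do not single out cells in meiosis, and Sall4 is also among those of undifferentiated spermatogonia. The subtraction therefore does not adjust for the share of cells that have entered meiosis.

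**Figure D4:**
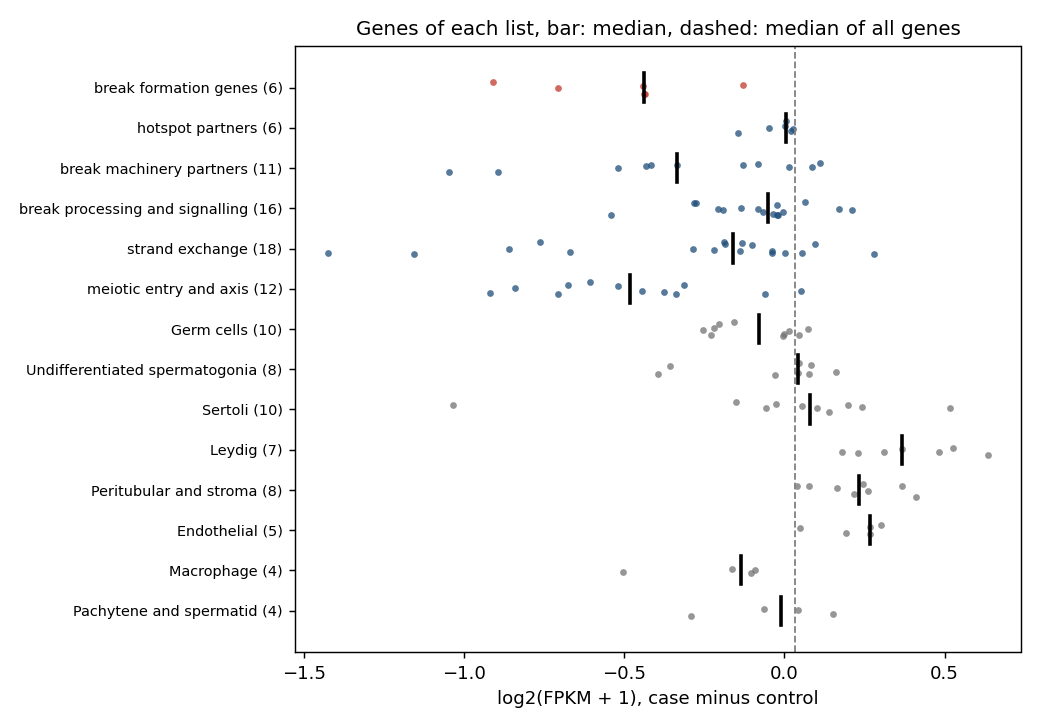
Difference of log2(FPKM + 1), case minus control, for each gene of the lists whose mean FPKM reached 1, with a black bar at each median, a dashed line at the median of all genes and the number of genes in brackets. The 6 break formation genes have a median of -0.44, the genes of meiotic entry and axis -0.48, and Leydig cell markers 0.37.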

How the data were processed

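The submitters' processing notes name TopHat2 2.0.9 and the build mm10. The program behind the table is not stated in the sources used here. The authors deposited, per the file headers, FPKM for a case and a control column, with a p-value and a q-value per row, 1 row per RefSeq transcript accession. Their log2 ratio is control over case (within 5.01e-05 in 13586 rows) and was turned round. Table starts count from 0, and 1 was added. Symbols came from RefSeq GRCm38.p6 by accession for 98.0% of rows, otherwise from the table. FPKM was summed per gene, genes with a mean of at least 1 were kept, and log2(FPKM + 1) was compared, which understates changes of low genes. Sums were tested on simulated data. With 1 value per group no test over libraries was possible, so p and q are the authors'. For other genes the tested row is that of highest FPKM. All members were named, and the 3 genes with the smallest authors' p from each pathway list. The members and lists were chosen with earlier results of these data known. Alternatives were other pseudocounts, filters, scalings and rows. Python 3.11.15, pandas 2.3.3 and SciPy 1.17.1 were used.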

Additional observations from a re-analysis of the deposited data

How the results depend on the processing

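All 6 genes found by name kept lower values in the case-labelled column under the alternatives run, and the 4 with a mean of at least 5 FPKM did so at that filter. The median difference of -0.44 stayed between -0.49 (pseudocount of 0.1) and -0.36 (germ cell marker median subtracted) over 15 alternatives, and was -0.44 with each gene left out in turn. Other choices were added after seeing the data: adding Rec114 by accession (-0.44, 7 of 7 lower), no pseudocount, and subtracting the germ cell median. Of 24 values of single genes under alternatives, 19 moved by under 0.1 and 0 changed sign. The other 5 were Spo11, from -0.91 to -0.66 with its highest row only, -1.38 with a pseudocount of 0.1 and -1.46 with none, and Prdm9, from -0.71 to -0.81 and -0.82 with those pseudocounts. A pseudocount cannot change the sign of a difference, and a filter on level leaves the values of a gene as they are. A gene with 1 row keeps its value when only the highest row is used. Median-of-ratios rescaling lowered case against control here, so a gene already lower could only move further down (Mei4 from -0.13 to -0.15). Under all these settings the lack of a sign change was therefore fixed in advance. Only quantile normalization and the highest row of Spo11 could have changed a sign. Calls at a q-value under 0.05 were 0 and stayed 0 at q under 0.10 and after adjustment over rows with a mean FPKM of at least 1. No paired analysis was possible because the table holds 1 pooled value a group, and leaving out a library could not be run for the same reason. Depth is unknown.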

Other observations

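The genes named here were picked with their values in view, and no test compared them. Hormad2, a paralog of Hormad1, stood at 5.06 FPKM in the case-labelled column and 7.08 FPKM in the control-labelled column. Rad21l, a meiotic cohesin subunit, stood at 3.97 and 7.12 FPKM, and Spata22, a partner of MEIOB, at 4.77 and 9.46 FPKM. Other germline genes of the same lists had closer values: Rec8, another meiotic cohesin subunit, stood at 8.81 and 9.24 FPKM, Mnd1, a cofactor of strand exchange, at 4.99 and 5.43 FPKM, and Tex19.1, a germ cell gene, at 57.3 and 53.0 FPKM. Mre11a and Rad50, of the nuclease complex that opens break ends, stood at 16.0 and 16.2 FPKM and at 16.8 and 17.1 FPKM. Trip13, which removes HORMAD proteins from the axis, stood at 24.8 and 23.3 FPKM.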
